A study of Mus musculus with 94 samples.

Results

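The genes described here encode 8 enzymes of triglyceride synthesis: Gpd1, Gpam, Agpat2, Lpin1, Dgat1, Dgat2, Mogat1 and Mogat2. They were taken by name from the 20411 gene rows of the deposited count tables, because of the steps they catalyse. RNA of 2 white fat depots, the epididymal (eWAT) and the inguinal (iWAT), was sequenced in 47 male C57BL/6JBomTac mice, which gave 94 libraries. Obese mice ate a high-fat diet for 18 weeks from 10 weeks of age, and regression mice ate it equally long before 2, 6 or 12 weeks of low-fat diet. Age-matched lean mice, which had eaten low-fat diet all along, were taken at each of these 4 times. The obese group held 5 mice and each of the other 7 groups held 6. Mice were kept 3 to a cage, apart from any that fought, and the labels do not say which ones lived together. All mice are of 1 strain and 1 sex. The samples are whole tissue, so fewer fat cells and less RNA per fat cell cannot be told apart.

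Fat cells store fatty acids as triglyceride, which they build on a glycerol backbone. In the glycerol phosphate pathway, glycerol 3-phosphate is acylated at successive positions to lysophosphatidic and then phosphatidic acid, a phosphatase turns this into diacylglycerol, and a last acyltransferase adds the final chain. A shorter route, best known from the small intestine, starts from monoacylglycerol and joins the main pathway at diacylglycerol. Gpd1 makes glycerol 3-phosphate from a glycolytic intermediate, Gpam and Agpat2 carry out the acylations, Lpin1 is the phosphatase, and Dgat1 and Dgat2 carry out the last step. Mogat1 and Mogat2 acylate monoacylglycerol.

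Coordinates are those of mm10 with GENCODE M21, and all 8 genes are protein coding. Gpd1 lies on chromosome 15 (99717515 to 99725005, plus strand) and Dgat1 on the same chromosome (76502015 to 76511953, minus strand). Gpam lies on chromosome 19 (55067268 to 55127238, minus), Agpat2 on chromosome 2 (26593057 to 26604417, minus), Lpin1 on chromosome 12 (16535669 to 16610966, minus) and Mogat1 on chromosome 1 (78510991 to 78538173, plus). Dgat2 and Mogat2, which belong to 1 enzyme family, are neighbours on the minus strand of chromosome 7 (99153658 to 99182719 and 99219084 to 99238619), 36.4 kb apart. Exons of 4 of the genes overlap an exon on the other strand: Mogat1 shares 200 bp with BC035947, Gpd1 384 bp with Gm16537, Agpat2 64 bp with Egfl7 and Mogat2 55 bp with Gm45012. The strand setting of the counting is unknown here, so reads in these stretches cannot be assigned.

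RefSeq promoter entries (GRCm38.p6) matched 4 of the 8 genes, and entries of 3 genes are shown. Like all 8 genes, these 3 were called lower than in lean mice after 2 weeks on the low-fat diet, in both depots. The entry for Mogat1 overlaps an exon of that gene, another entry for Gpam overlaps an exon of AC110206.1, and neither is shown. Each sequence is the 250 bases before the annotated start, read along the gene's strand, for Agpat2 (chr2:26604418-26604667, minus), Gpam (chr19:55127239-55127488, minus) and Lpin1 (chr12:16610967-16611216, minus). Capitals mark a GC box in Agpat2, a CCAAT box (read on the other strand) in Gpam, and the nuclear receptor hexamer in Lpin1.
Agpat2: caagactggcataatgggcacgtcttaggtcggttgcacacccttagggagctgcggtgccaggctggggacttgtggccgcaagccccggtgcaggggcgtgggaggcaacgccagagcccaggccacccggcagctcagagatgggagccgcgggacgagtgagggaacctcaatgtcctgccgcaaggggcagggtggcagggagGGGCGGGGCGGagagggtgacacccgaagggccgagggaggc
Gpam: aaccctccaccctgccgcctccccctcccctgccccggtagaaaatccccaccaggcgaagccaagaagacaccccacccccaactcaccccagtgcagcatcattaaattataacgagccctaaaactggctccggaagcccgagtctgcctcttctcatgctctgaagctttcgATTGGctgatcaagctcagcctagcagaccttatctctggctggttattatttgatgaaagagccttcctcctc
Lpin1: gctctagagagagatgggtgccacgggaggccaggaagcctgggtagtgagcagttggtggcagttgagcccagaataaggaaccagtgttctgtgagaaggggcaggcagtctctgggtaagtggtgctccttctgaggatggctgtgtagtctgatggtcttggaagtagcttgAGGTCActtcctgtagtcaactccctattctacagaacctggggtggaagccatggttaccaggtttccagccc
The search covered both strands for the GC box GGGCGG, the CCAAT box CCAAT, the TATA box TATAAA, the E-box CACGTG, the nuclear receptor hexamer AGGTCA, the PPAR direct repeat made of it, and the C/EBP motif TTGCNNAA. Agpat2 held 2 GC boxes, starting 42 and 37 bases before the start and sharing 1 base, and none of the other motifs. Gpam held 1 CCAAT box and Lpin1 1 hexamer, each starting 74 bases before its start. The other Gpam entry held 1 GC box and 1 hexamer, 16 and 196 bases before its start, and the Mogat1 entry none of the motifs. Of 32851 RefSeq promoters of the same length, 32.7% held a GC box, 33.8% a CCAAT box and 14% the hexamer. The remaining motifs were in 12.4% (TATA box), 6.02% (E-box), 9.56% (C/EBP) and 0.0335% (the repeat) of them. These are matches of letters only.

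Library totals ran from 1318944 to 25866576 counts in eWAT (median 8527647) and from 6268458 to 34327987 counts in iWAT (median 9646191). The shallowest library was replicate 2 of the 2-week regression group in eWAT. Of the adipocyte markers, none was at 0 across a whole group in either depot. Markers of some other tissues stood out in single libraries: their summed level reached 5784 CPM for vas deferens or epididymis in lean eWAT, against medians of at most 1.68 in the groups. Ciliated duct markers in eWAT had group medians from 7.41 CPM (regression at 12 weeks) to 171 CPM (lean at 12 weeks). Skeletal muscle markers in iWAT were not confined to single libraries. Their group medians ran from 32.9 CPM (regression at 2 weeks) to 3790 CPM (lean at 6 weeks), with 864 CPM in lean mice at 2 weeks. They reached 34732 CPM in 1 lean iWAT library at 6 weeks and 23327 CPM in 1 regression library at 12 weeks. Lymph node markers reached 888 CPM in lean iWAT at 2 weeks (replicate 2, group median 27.9) and 1075 CPM in regression iWAT at 12 weeks (replicate 2, median 12.9). With these signals as terms in the fit, the count of the 8 genes called was unchanged at each of the 4 times in both depots.

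**Figure D1:**
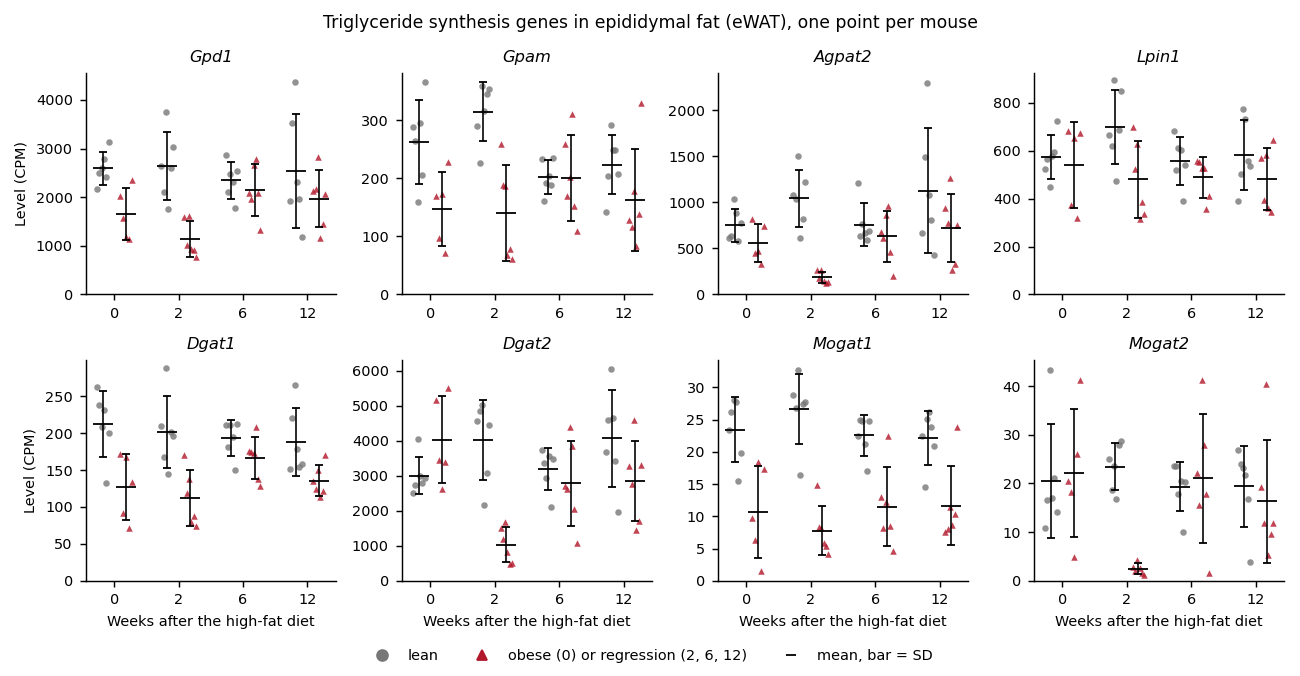
Level of each gene in eWAT (CPM, linear axis from 0) at 0, 2, 6 and 12 weeks after the high-fat diet, with grey circles for lean mice, red triangles for obese or regression mice, and black marks for mean and SD. At 2 weeks the regression mice lie below all lean mice for Gpd1, Agpat2, Dgat2, Mogat1 and Mogat2.

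In lean fat, Dgat2 and Gpd1 were the most abundant of the 8 and Mogat1 and Mogat2 the least. Averaged over the 24 lean mice and per length of exon (RPKM), Dgat2 stood at 1125, Gpd1 at 830.2 and Agpat2 at 419.3 in eWAT. Dgat1 (63.2) and Lpin1 (60.7) were close to each other, followed by Gpam (36.6), Mogat1 (14.8) and Mogat2 (10.96). In iWAT the order was Gpd1 (1519 RPKM), Dgat2 (916), Agpat2 (636), Dgat1 (72.5), Lpin1 (64.7), Gpam (25.9), Mogat1 (10.8) and Mogat2 (3.79). Neighbours in this order that differed by less than the larger SD of the pair over the 24 mice were Dgat1 and Lpin1 in both depots, and Dgat2 and Gpd1 as well as Mogat1 and Mogat2 in eWAT. All other levels below are CPM, a count as a share of its TMM-scaled library total, which compare 1 gene between samples and not genes with each other. All 8 genes passed the filter on low counts in both depots.

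Triglyceride synthesis genes were lower in part after 18 weeks of high-fat diet, and all lower than in lean mice after 2 weeks back on the low-fat diet. At 6 and 12 weeks edgeR called none of them. A gene was called where its adjusted p, Benjamini-Hochberg over all genes of the depot, was under 0.05. In obese mice 2 of the 8 fell in eWAT (Dgat1 and Mogat1), where 9.31% of all genes tested were called lower. In iWAT 6 of 8 fell (all but Dgat2 and Mogat2), beside 15.5% of all genes. After 2 weeks of regression all 8 fell in eWAT and all 8 in iWAT, beside 17.1% and 9.37% of all genes called lower. All calls of the 8 genes against lean mice were lower, and none was higher.

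Groups separated completely for 5 of the 8 genes at 2 weeks in eWAT (all regression mice below all lean mice), beside 5.65% of all genes, and for 2 of the 8 in iWAT, beside 2.53%. In obesity this held for none of the 8 in eWAT (3.48% of all genes) and for 3 in iWAT (10.2%). The median log2 fold change of the 8 was -0.53 in obese eWAT and -0.79 in obese iWAT, and -1.48 and -1.16 at 2 weeks. Medians over all genes tested lay between -0.031 and 0.036 at the 4 times in both depots. At the later times, where none of the 8 was called, the share of all genes called in either direction was lower than at 2 weeks. It was 7.58% (eWAT) and 1.04% (iWAT) at 6 weeks and 15.3% and 0.0288% at 12 weeks. No share of all genes was taken at an unadjusted p under 0.05, here or below. At that threshold 1 of the 8 passed at 6 weeks in eWAT and none in iWAT, and 2 and 1 passed at 12 weeks. DESeq2 called Mogat1 at both times in eWAT and none of the 8 in iWAT. Every one of the 8 had a log2 fold change below 0 at 12 weeks in both depots, with medians of -0.47 and -0.42. The share of all genes below 0 was not taken. The 11 adipocyte markers had medians of -0.38 and -0.16 at 12 weeks (eWAT, then iWAT), with 0 called. Of 10 macrophage markers, 10 were called higher in eWAT at 12 weeks, beside 1549 of all 14323 genes, and 0 in iWAT, beside 3 of 13899.

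**Figure D2:**
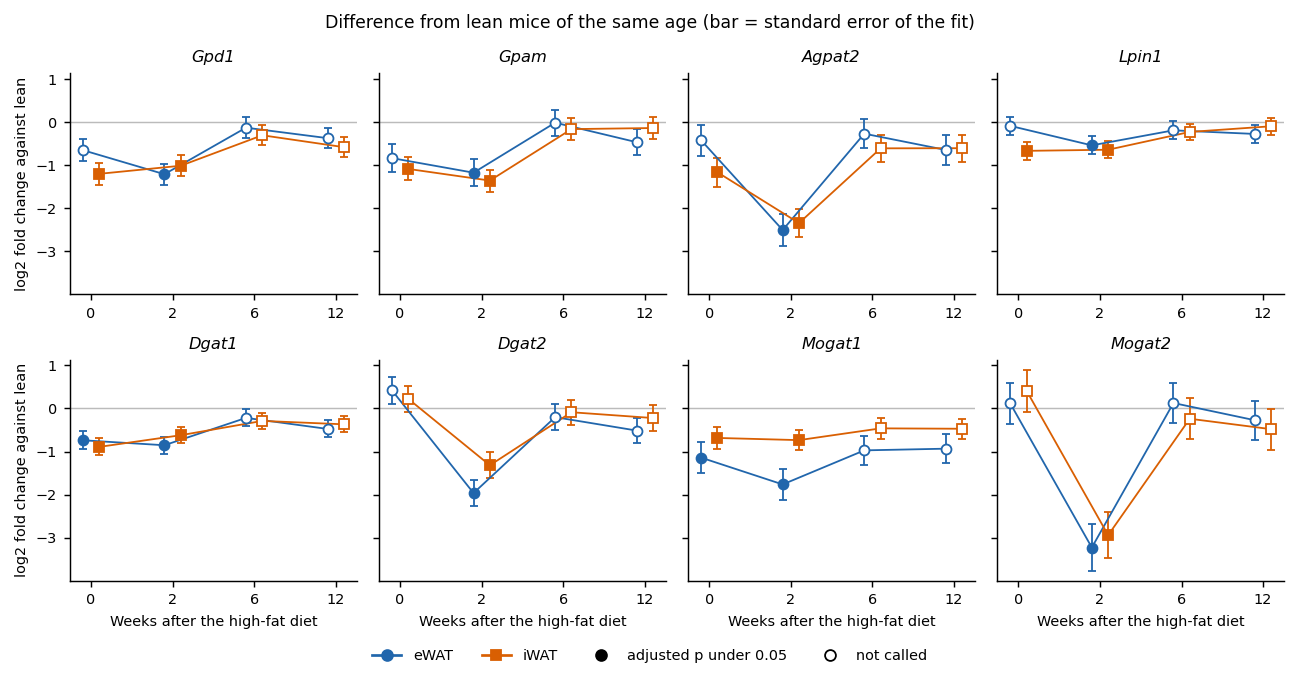
log2 fold change of each gene against lean mice of the same age (vertical axis, bar = standard error) by weeks after the high-fat diet, in eWAT (blue circles) and iWAT (orange squares), with filled symbols where the adjusted p was under 0.05. In eWAT all genes reach their lowest values at 2 weeks, as Agpat2, Dgat2 and Mogat2 do in iWAT. Gpd1, Gpam, Lpin1, Dgat1 and Mogat1 in iWAT are about as low in obesity as at 2 weeks.

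The counts depended on mice within a group. The labels number the mice in separate series, replicates 1 to 3 in one and 4 to 6 in the other, and do not say what separates the series. At 2 weeks in eWAT, regression replicates 1 to 3 lay above replicates 4 to 6 for 7 of the 8 genes, beside 11.5% of all genes tested. In iWAT this held for 4 of the 8, beside 12.2%. In each of the other 14 groups at most 3 of the 8 genes separated the series in one direction, but the share of all genes was not taken there. The summed level of the 11 adipocyte markers followed the same order in eWAT, with 28233 to 40458 CPM in replicates 1 to 3 and 19472 to 20164 in replicates 4 to 6. Fitted apart, replicates 4 to 6 gave 8 of 8 genes called lower at 2 weeks in each depot, beside 13% of all genes in eWAT and 7.91% in iWAT. Replicates 1 to 3 gave 5 of 8 in eWAT, beside 7.53%, and 2 of 8 in iWAT (Agpat2 and Mogat2), beside 2.38%. In obesity, replicates 1 to 3 gave 1 of 8 in eWAT and 4 of 8 in iWAT, beside 1.87% and 9.09% of all genes. Replicates 4 to 6, with 2 obese mice, gave 0 and 2, beside 3.5% and 4.36%. All 8 log2 fold changes at 2 weeks were negative in both series and both depots. With the run of neighbouring mouse numbers as a random block in limma, Lpin1 and Mogat1 were no longer called in iWAT. Their adjusted p-values were then 0.0548 and 0.0588 in obesity and 0.0679 and 0.105 at 2 weeks.

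Gpd1, the cytosolic enzyme that supplies the glycerol backbone, fell in iWAT of obese mice and in both depots at 2 weeks. In eWAT the obese mice stood at 2021, 1565, 1191, 1146 and 2363 CPM, and the lean mice ran from 2162 over a median of 2544 to 3144. Of the 5 obese mice, 4 lay below the lowest lean mouse, and the log2 fold change of -0.65 ± 0.25 was not called (adjusted p = 0.0575). In iWAT the obese mice stood at 1783, 2098, 1419.6, 1861 and 3127 CPM against a lowest, median and highest of 3324, 5087 and 5588 in lean mice. All 5 lay below all 6 lean mice, a fall by 1.20 ± 0.25 (adjusted p = 0.000417). At 2 weeks the lowest, median and highest were 771, 981 and 1619 CPM in regression and 1757, 2614 and 3743 in lean eWAT, with no overlap (-1.21 ± 0.24, adjusted p = 0.000171). In iWAT they were 1109, 1597 and 2894 against 1573, 3308 and 5351 CPM (-1.01 ± 0.24, adjusted p = 0.00261). The iWAT groups overlapped, since lean replicate 2 was as low as regression replicate 2. That lean library also held the most lymph node marker RNA of its group. At 6 and 12 weeks Gpd1 stood at 2148 ± 529.8 against 2347 ± 377 CPM and 1966 ± 587 against 2541 ± 1176 CPM in eWAT (SD, n = 6 and 6). The values in iWAT were 3461 ± 682 against 4271 ± 387 CPM and 3459 ± 1092 against 5169 ± 1555 CPM, and the groups overlapped in all 4 comparisons.

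Gpam, the mitochondrial acyltransferase that commits glycerol 3-phosphate to the pathway, fell in obese iWAT and in both depots at 2 weeks. Obese eWAT held 170.0, 96.8, 173, 70.6 and 228 CPM and lean eWAT 159.6, 277 and 366 (lowest, median and highest). The groups overlapped and the difference was not called (-0.83 ± 0.32, adjusted p = 0.0550). Obese iWAT held 76.3, 75.5, 76.0, 70.0 and 132 CPM, with replicate 5 apart from the other 4, against 141, 173 and 240.3 in lean mice. Even that mouse lay below the lowest lean one (-1.08 ± 0.27, adjusted p = 0.00202). After 2 weeks, regression eWAT ran from 61.9 to 259 CPM (median 133) and lean eWAT from 226 to 359 (median 330.3). Replicates 4 to 6 of the regression group, at 68.4, 78.1 and 61.9 CPM, were far below replicates 1 to 3, at 259, 188 and 188. The fit gave -1.17 ± 0.31 (adjusted p = 0.00276), but -0.47 (adjusted p = 0.276) in replicates 1 to 3 alone. In iWAT the lowest, median and highest were 46.3, 68.2 and 115 against 95.8, 214 and 248.5 CPM (-1.36 ± 0.25, adjusted p = 0.000241). By 6 weeks the means were 201 ± 73.9 against 202 ± 28.6 CPM in eWAT and 132 ± 38.5 against 148 ± 26.9 CPM in iWAT, and by 12 weeks 162 ± 87.5 against 224 ± 51.4 CPM and 136 ± 61.0 against 149.5 ± 42.0 CPM. In each of these 4 comparisons the groups overlapped.

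Agpat2 makes phosphatidic acid in the endoplasmic reticulum, and its loss causes a congenital lack of fat tissue in people and mice. It showed the smallest adjusted p of the 8 at 2 weeks in both depots. Regression eWAT held 263, 174, 264, 151, 122 and 134 CPM in replicates 1 to 6, and lean eWAT 616, 1061 and 1508 (lowest, median and highest). Regression iWAT held 269, 237, 397.4, 185, 109 and 167 against 551, 1118 and 1792 in lean mice. In both depots every regression mouse lay below every lean mouse, and the lean groups were wide. The log2 fold changes were -2.50 ± 0.36 in eWAT (adjusted p = 3.80e-06) and -2.34 ± 0.33 in iWAT (adjusted p = 3.11e-06). In obesity the depots gave different calls, with 816, 454.04, 471.6, 331 and 742 CPM in obese against 583, 702 and 1033 in lean eWAT (-0.42 ± 0.36, adjusted p = 0.446). Obese iWAT held 498, 618, 333, 602 and 731 against 707, 1306 and 1625 CPM, with 1 obese mouse above the lowest lean mouse (-1.16 ± 0.33, adjusted p = 0.00709). The difference between the depots in this response was not called (iWAT minus eWAT -0.67 ± 0.25, adjusted p = 0.217). At 6 and 12 weeks, levels were 631 ± 274 against 759 ± 232 CPM and 722 ± 374 against 1128 ± 679.6 CPM in eWAT. In iWAT they were 806 ± 325 against 1227 ± 298 CPM and 1105 ± 556 against 1679.7 ± 561 CPM, with log2 fold changes of -0.61 ± 0.31 and -0.60 ± 0.31 that were not called. The lean eWAT group at 12 weeks was itself wide, from 424.1 to 2295 CPM.

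Lpin1, which encodes the phosphatidic acid phosphatase lipin 1 and is also known as a nuclear co-regulator, moved least of the 8 at 2 weeks in eWAT. There the lowest, median and highest were 315, 455.7 and 699 CPM in regression and 472.5, 677 and 895 in lean mice, with wide overlap. The log2 fold change of -0.54 ± 0.21 was called (adjusted p = 0.0375), but leaving out any 1 of 6 libraries (lean replicates 3, 5 and 6 or regression replicates 4, 5 and 6) ended the call, with adjusted p up to 0.126. In iWAT the values at 2 weeks were 274, 347 and 461.2 against 293, 569 and 746 CPM (-0.64 ± 0.19, adjusted p = 0.0178). Leaving out lean replicate 3, the highest lean mouse, gave an adjusted p of 0.0640. In obese mice Lpin1 was not called in eWAT, where it stood at 684, 374, 652, 319 and 673 CPM against 448.4, 573 and 725 (-0.086 ± 0.22, adjusted p = 0.818). Obese replicates 2 and 4 were below all lean mice, and the other 3 lay above all lean mice but 1. In obese iWAT it fell, with 369, 410.3, 355, 419.6 and 461.9 against 457.9, 637 and 866 CPM (-0.67 ± 0.20, adjusted p = 0.0115). At 6 and 12 weeks the eWAT means were 489 ± 85.0 against 558 ± 101 CPM and 483 ± 130.4 against 583 ± 145 CPM, and the iWAT means 515 ± 58.3 against 603 ± 69.3 CPM and 611 ± 234 against 652 ± 149.7 CPM.

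**Figure D3:**
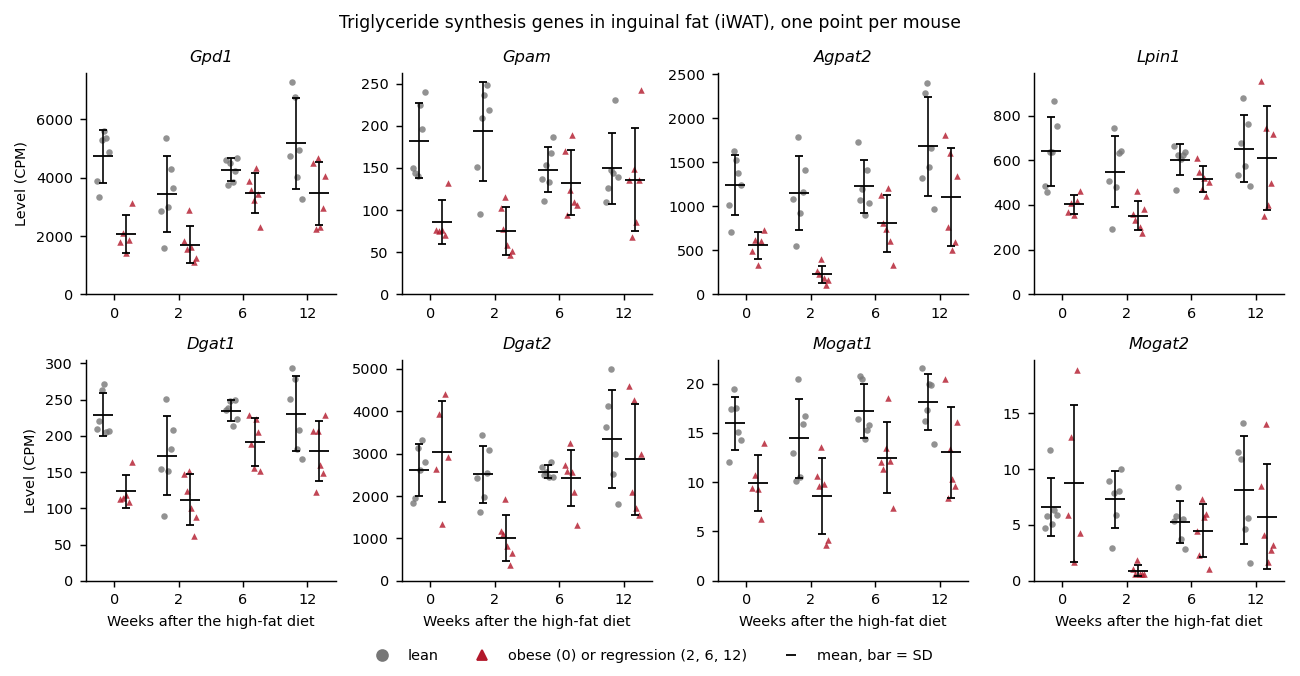
Level of each gene in iWAT (CPM, linear axis from 0) at 0, 2, 6 and 12 weeks after the high-fat diet, with grey circles for lean mice, red triangles for obese or regression mice, and black marks for mean and SD. Obese mice lie below all lean mice for Gpd1, Gpam and Dgat1, and regression mice at 2 weeks do so for Agpat2 and Mogat2.

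Dgat1 and Dgat2 catalyse the same last step but are unrelated in sequence, and in obese fat Dgat1 fell while Dgat2 was not called. The difference between the 2 genes was not tested. Dgat1 fell in eWAT from 133, 219.9 and 263 CPM in lean mice (lowest, median and highest) to 172, 91.3, 168, 71.8 and 133 in the obese ones. Obese replicates 2 and 4 lay below all lean mice and the other 3 within their range (-0.74 ± 0.21, adjusted p = 0.00841). Without obese replicate 4 the difference was -0.57 (adjusted p = 0.0614) and was not called. In iWAT Dgat1 held 112, 114, 119, 109 and 164 CPM in obese mice, all below the lean 206, 215 and 271 (-0.89 ± 0.20, adjusted p = 0.000703). Dgat2 was not called in obese mice in either depot. It held 5166, 3457, 2620.1, 3377 and 5497 CPM in obese eWAT against 2514, 2862 and 4045 in lean eWAT, where 2 obese mice lay above all lean ones (0.42 ± 0.31, adjusted p = 0.361). In iWAT it held 2634, 3937, 1342, 4420.3 and 2918 against 1839, 2707 and 3323 CPM (0.22 ± 0.31, adjusted p = 0.6252), with obese mice on both sides of the lean range.

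At 2 weeks both acyltransferases of the last step fell. Dgat2 ran 479.98, 1007 and 1678 CPM (lowest, median and highest) in regression eWAT and 2151, 4513 and 5025 in lean eWAT. The groups did not overlap, and the log2 fold change was -1.963 ± 0.31 (adjusted p = 1.12e-05). In iWAT it ran 374, 959 and 1919 against 1616, 2489 and 3438 CPM (-1.32 ± 0.30, adjusted p = 0.00178), and regression replicate 3 was the 1 mouse above the lowest lean mouse. Dgat1 ran 73.9, 104 and 171 against 145, 199 and 289 CPM in eWAT (-0.85 ± 0.20, adjusted p = 0.000851). In iWAT Dgat1 ran 61.4, 112 and 152 against 89.9, 168 and 250.5 CPM (-0.62 ± 0.19, adjusted p = 0.0173). This last call was lost without lean replicate 3 or without regression replicate 5 (adjusted p = 0.0748 and 0.0605).

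Neither gene was called at the later times. Dgat2 stood at 2777 ± 1200.3 against 3194 ± 601 CPM at 6 weeks and 2848 ± 1155 against 4063 ± 1374 CPM at 12 weeks in eWAT. In iWAT it stood at 2427 ± 660.5 against 2579 ± 146 CPM and 2869.7 ± 1310.5 against 3347 ± 1146 CPM. Regression mice at 12 weeks reached from 1445 to 4579.5 CPM in eWAT and from 1554 to 4595 in iWAT, and the lean mice from 1974 to 6039 and 1809 to 4992. Dgat1 at 6 and 12 weeks stood at 166 ± 28.7 against 193 ± 24.2 CPM and 135 ± 21.0 against 188 ± 45.9 CPM in eWAT, and 5 of the 6 regression mice at 12 weeks lay below the lowest lean mouse (-0.47 ± 0.20, adjusted p = 0.0904). In iWAT the means were 192 ± 33.1 against 235 ± 14.3 CPM and 179 ± 41.2 against 230.4 ± 51.9 CPM.

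Mogat1 acylates monoacylglycerol and is known as a target of PPARγ, the master regulator of fat cells. It was lower in obese eWAT and at 2 weeks in both depots. In obese eWAT it stood at 9.80, 6.31, 18.4, 1.58 and 17.3 CPM, with replicate 4 lowest, against 15.5, 24.8 and 28.1 in lean mice (lowest, median and highest). The log2 fold change of -1.14 ± 0.36 (adjusted p = 0.0188) was not called without obese replicate 2 (0.0693) or without obese replicate 4 (0.0830, both adjusted p). In obese iWAT it stood at 9.41, 10.7, 9.29, 6.23 and 14.0 against 12.1, 16.2 and 19.4 CPM (-0.68 ± 0.25, adjusted p = 0.0348), and leaving out any 1 of 6 libraries ended that call (lean replicates 2, 3 and 4, obese replicates 1, 3 and 4). At 2 weeks the eWAT values were 4.16, 7.002 and 14.8 against 16.4, 27.5 and 32.8 CPM, with every regression mouse below every lean mouse (-1.76 ± 0.35, adjusted p = 0.000177). In iWAT they were 3.65, 9.72 and 13.6 against 10.1, 14.4 and 20.4 CPM (-0.73 ± 0.24, adjusted p = 0.0278). That iWAT call was lost without any 1 of 5 libraries, lean replicates 3, 5 and 6 and regression replicates 5 and 6, with adjusted p up to 0.0896.

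At the later times most regression mice had less Mogat1 in eWAT than any lean mouse, in differences that were not called. At 6 weeks it held 13.1, 8.23, 12.2, 22.4, 8.43 and 4.64 CPM in regression replicates 1 to 6 against 17.0, 23.6 and 25.0 in lean mice. At 12 weeks it held 7.57, 7.97, 11.5, 8.65, 10.4 and 23.8 against 14.6, 23.2 and 26.2. At both times 5 of 6 regression mice lay below all lean mice and 1 mouse, replicate 4 at 6 weeks and replicate 6 at 12 weeks, lay at the lean level. The log2 fold changes were -0.97 ± 0.34 (adjusted p = 0.0674) and -0.93 ± 0.34 (adjusted p = 0.0548), neither called. Without those mice they were -1.27 and -1.27 and both were called, the latter also without replicate 3 (adjusted p = 0.0154 and 0.00838). The authors' deposited table lists adjusted p-values of 0.0485 and 0.0388 for Mogat1 at these times. In iWAT at 6 and 12 weeks the means were 12.5 ± 3.63 against 17.2 ± 2.74 CPM and 13.04 ± 4.61 against 18.1 ± 2.83 CPM (adjusted p = 0.296 and 0.344). There 5 and 4 of 6 regression mice lay below the lowest lean mouse.

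Mogat2, the intestinal form of the enzyme, was on average the least abundant of the 8 in lean mice of both depots. It fell furthest of the 8 at 2 weeks. Regression eWAT held 2.92, 2.08, 4.28, 2.64, 1.52 and 1.11 CPM in replicates 1 to 6 and lean eWAT 16.8, 24.3 and 28.8 (lowest, median and highest). Regression iWAT held 1.06, 0.616, 1.88, 0.647, 0.590 and 0.643 against 2.97, 7.93 and 10.0 CPM. No regression mouse reached the lowest lean mouse in either depot. The log2 fold changes were -3.23 ± 0.54 (adjusted p = 1.94e-05) and -2.94 ± 0.53 (adjusted p = 0.000156). These rest on few reads, 3 to 36 counts per regression library in eWAT and 5 to 41 in iWAT, the lowest of them in the shallowest library. In obese mice Mogat2 scattered widely, with 20.6, 18.3, 4.84, 26.0 and 41.3 CPM in eWAT and 5.91, 12.9, 1.68, 18.9 and 4.24 in iWAT. Lean mice at that time ran 10.9, 16.8 and 43.4 in eWAT and 4.69, 5.86 and 11.7 in iWAT, and neither difference was called (0.12 ± 0.47 and 0.41 ± 0.49). In eWAT obese replicate 3 lay below all lean mice and the other 4 within their range, and in iWAT replicates 3 and 5 lay below and replicates 2 and 4 above all lean mice. At 6 and 12 weeks the eWAT means were 21.0 ± 13.2 against 19.3 ± 5.02 CPM and 16.4 ± 12.7 against 19.4 ± 8.30 CPM, and the iWAT means 4.48 ± 2.38 against 5.26 ± 1.90 CPM and 5.73 ± 4.70 against 8.10 ± 4.83 CPM. Regression replicate 6 of eWAT at 6 weeks, at 1.58 CPM, was still at the level of the 2-week group.

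The change of these differences between times was tested in the same fits, and the comparisons with obesity share its 11 libraries. From obesity to 2 weeks, the difference from lean fell for 3 of the 8 genes in eWAT, Dgat2 (-2.38 ± 0.44, adjusted p = 0.000679), Mogat2 (-3.34 ± 0.71, adjusted p = 0.00321) and Agpat2 (-2.08 ± 0.50, adjusted p = 0.00815). Of all genes in eWAT, 3.74% were called lower in this comparison. In iWAT it fell for 2 of the 8, Dgat2 (-1.54 ± 0.43, adjusted p = 0.0309) and Mogat2 (-3.35 ± 0.72, adjusted p = 0.00483), beside 2.12% of all genes. Agpat2 in iWAT was not called (-1.18 ± 0.45, adjusted p = 0.119). For Gpd1, Gpam, Lpin1, Dgat1 and Mogat1 no change from obesity to 2 weeks was called in either depot. In eWAT their values, all below 0, were -0.56, -0.34, -0.45, -0.12 and -0.62, with standard errors from 0.28 to 0.50. In iWAT they were 0.19, -0.27, 0.026, 0.27 and -0.051, with standard errors from 0.27 to 0.36.

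From 2 to 6 weeks, the difference from lean rose in eWAT for the same 3 genes, Dgat2 (1.76 ± 0.43, adjusted p = 0.0318), Mogat2 (3.35 ± 0.70, adjusted p = 0.0157) and Agpat2 (2.24 ± 0.49, adjusted p = 0.0216). Of all genes in eWAT, 0.593% were called higher in this comparison. In iWAT edgeR called none of the 8, beside 0.101% of all genes called higher, and 5 of the 8 had an unadjusted p under 0.05. Mogat2 (2.70 ± 0.71, adjusted p = 0.0812), Agpat2 (1.73 ± 0.44, adjusted p = 0.0800) and Gpam (1.19 ± 0.36, adjusted p = 0.116) came closest, and DESeq2 called these 3. From obesity to 6 or to 12 weeks, edgeR called no change of the 8 in either depot, beside 1.21% and 2.32% of all genes in eWAT and 1.38% and 4.85% in iWAT. At an unadjusted p under 0.05 these counts were 0 and 1 in eWAT and 3 and 2 in iWAT. The unadjusted counts of changes have no share of all genes beside them. Among lean mice, edgeR called none of the 8 between the obesity time and 12 weeks, beside 0.105% of all genes in eWAT and 0.496% in iWAT, and none had an unadjusted p under 0.05. The largest such value in eWAT was that of Agpat2 (0.58 ± 0.34), as it was in iWAT (0.43 ± 0.31). Lean mice at 2 and 6 weeks were not tested against the other lean groups. At the obesity time, 2 and 6 weeks, lean eWAT means were 3005, 4020 and 3194 CPM for Dgat2. They were 753, 1047 and 759 CPM for Agpat2 and 20.5, 23.5 and 19.3 CPM for Mogat2. In lean iWAT, means at the obesity time and 2 weeks were 2612 and 2516 CPM for Dgat2, and 6.60 and 7.28 CPM for Mogat2.

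The depots of lean mice differed for 7 of the 8 genes, in a test that set both depots of each mouse side by side, and 59.3% of all genes differed in that test. Gpd1 and Agpat2 were higher in iWAT, each in 23 of the 24 lean mice. Gpd1 stood at 4498 ± 1231 CPM in iWAT and 2458 ± 646 in eWAT (SD, n = 24 mice; iWAT minus eWAT 0.86 ± 0.064 on the log2 scale, adjusted p = 2.41e-15). Agpat2 stood at 1356 ± 444.2 and 893 ± 387 (0.63 ± 0.084, adjusted p = 1.66e-08). Mogat2 was lower in iWAT in all 24 lean mice, at 6.96 ± 3.15 against 20.1 ± 7.37 CPM (-1.55 ± 0.12, adjusted p = 1.09e-14), the largest depot difference of the 8. Gpam was also lower in iWAT in all 24 mice (-0.51 ± 0.071), while Mogat1 was lower in 22 (-0.45 ± 0.10) and Dgat2 in 20 (-0.29 ± 0.081). Dgat1 was higher in iWAT in 18 of 24 (0.19 ± 0.065, adjusted p = 0.0124). Lpin1 was the gene not called (0.087 ± 0.073, 95% interval -0.057 to 0.23, adjusted p = 0.313).

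**Figure D4:**
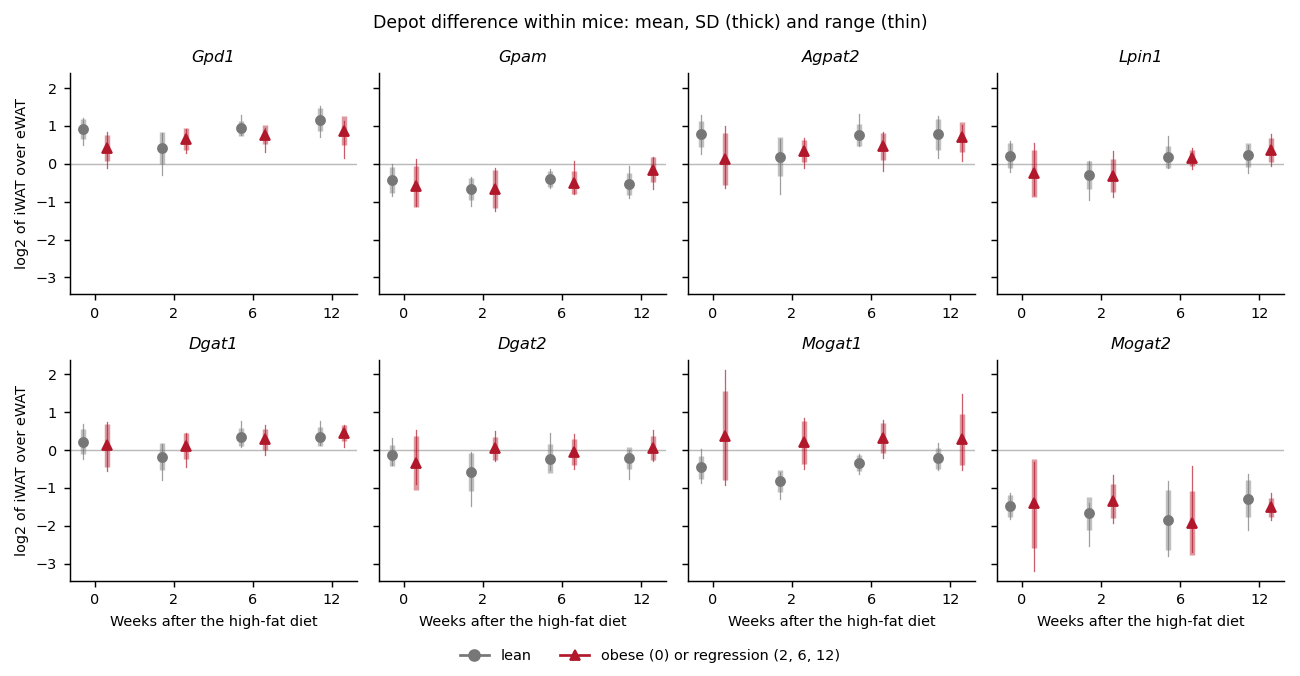
log2 ratio of the level in iWAT to that in eWAT of the same mouse (vertical axis) at 0, 2, 6 and 12 weeks after the high-fat diet, for lean (grey circles) and obese or regression mice (red triangles), with the mean, SD (thick bar) and range (thin bar) of 5 or 6 mice. The mean for Mogat1 is below 0 in the lean groups and above 0 in the obese and regression groups, and that for Mogat2 is below 0 in every group.

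A depot difference in the response to diet was called for 1 of the 8 genes, Mogat1 at 2 weeks, beside 8.42% of all genes. A count of 1 in 8 is near that share. Mogat1 fell more in eWAT than in iWAT (iWAT minus eWAT 1.02 ± 0.30, adjusted p = 0.0269). Within mice, the log2 ratio of iWAT to eWAT was -0.81 ± 0.29 in lean mice (SD, n = 6, range -1.28 to -0.57). In regression mice it was 0.20 ± 0.58 (n = 6, range -0.49 to 0.86), so the groups did not overlap. Leaving out lean replicate 2, regression replicate 3 or regression replicate 4 ended that call (adjusted p = 0.0645, 0.0684 and 0.0641), an alternative added after seeing the data. The iWAT library of lean replicate 2 held the most lymph node marker RNA of its group. In obesity the difference for Mogat1 was 0.70 ± 0.31 (adjusted p = 0.337), at 6 weeks 0.61 ± 0.29 (0.298) and at 12 weeks 0.48 ± 0.29 (0.392). edgeR called none of the 8 at these 3 times, beside 1.32%, 0.597% and 0.0542% of all genes. At an unadjusted p under 0.05, 4, 1 and 0 of the 8 passed, and the share of all genes at that threshold was not taken. Dgat2 at 2 weeks came next (0.62 ± 0.23, 95% interval 0.17 to 1.07, adjusted p = 0.0849). For Gpam and Lpin1 the intervals at 2 weeks were -0.37 to 0.37 and -0.43 to 0.39, and for Agpat2 and Mogat2 -0.32 to 0.62 and -0.50 to 1.18.

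Other genes of the pathway were read from 3 lists. The isoform list held 12 genes, which share a step with the 8 genes except for Gpd2, and 11 were tested. Of these, 3 fell in obese eWAT, 5 in obese iWAT, 6 at 2 weeks in eWAT and 4 in iWAT. The shares of all genes called lower were 9.31%, 15.5%, 17.1% and 9.37% in the same order. The list's medians were -0.14, -0.28, -0.31 and -0.12 in the same order. Gpd2, the mitochondrial glycerol 3-phosphate dehydrogenase that runs the shuttle with Gpd1 and is not an isoform of it, moved furthest. It stood at 68.0 against 501 CPM in obese iWAT (-2.88 ± 0.35, adjusted p = 1.54e-07) and fell by 2.06 in obese eWAT, 2.03 at 2 weeks in eWAT and 2.28 in iWAT. Agpat6, the endoplasmic reticulum counterpart of Gpam, fell in obese eWAT (-0.44), obese iWAT (-0.82) and eWAT at 2 weeks (-0.53). Agpat4 rose in obese iWAT (0.80) and at 2 weeks in eWAT (0.60) and iWAT (0.62), and Lpin3 rose in obese iWAT (0.82). Lclat1 was the 1 gene of this list called at 6 and at 12 weeks in eWAT (-0.25 and -0.35), beside 7.58% and 15.3% of all genes. In iWAT edgeR called none of the list at these times, beside 1.04% and 0.0288% of all genes.

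Of the 10 genes that supply acyl-CoA and glycerol, edgeR called none in obese eWAT and 3 lower in obese iWAT. Of all genes, 9.31% and 15.5% were called lower there. The 3 included the fatty acid transporter Slc27a1 (-1.18 ± 0.26). At 2 weeks 2 rose and 2 fell in eWAT, beside 2661 called higher and 2450 lower of all 14323 genes. In iWAT 1 rose and 1 fell, beside 1312 higher and 1302 lower of 13899. These 2-week counts lie near the shares of all genes. The glycerol channel Aqp7 was the gene that rose in both depots, by 0.60 ± 0.18 and 0.64 ± 0.20, and Acsl3 the gene that fell in both (-0.86 and -1.09). The phospholipid branch draws on the same diacylglycerol and phosphatidic acid. Of its 12 genes, 3 fell and 1 rose in obese eWAT, and 3 fell in obese iWAT. At 2 weeks 4 fell in eWAT and 3 in iWAT. Called lower were 9.31%, 15.5%, 17.1% and 9.37% of all genes in these 4 comparisons. Chpt1, the choline phosphotransferase, fell in all 4 of these comparisons, from -1.36 at 2 weeks in eWAT to -0.95 in obese eWAT. Pcyt2, which activates ethanolamine, fell in the same 4, from -1.16 to -0.54. At 2 weeks the medians were 0.055 and -0.057 for the supply list and -0.15 and -0.083 for the phospholipid branch (eWAT, then iWAT), against -1.48 and -1.16 for the 8 genes.

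**Figure D5:**
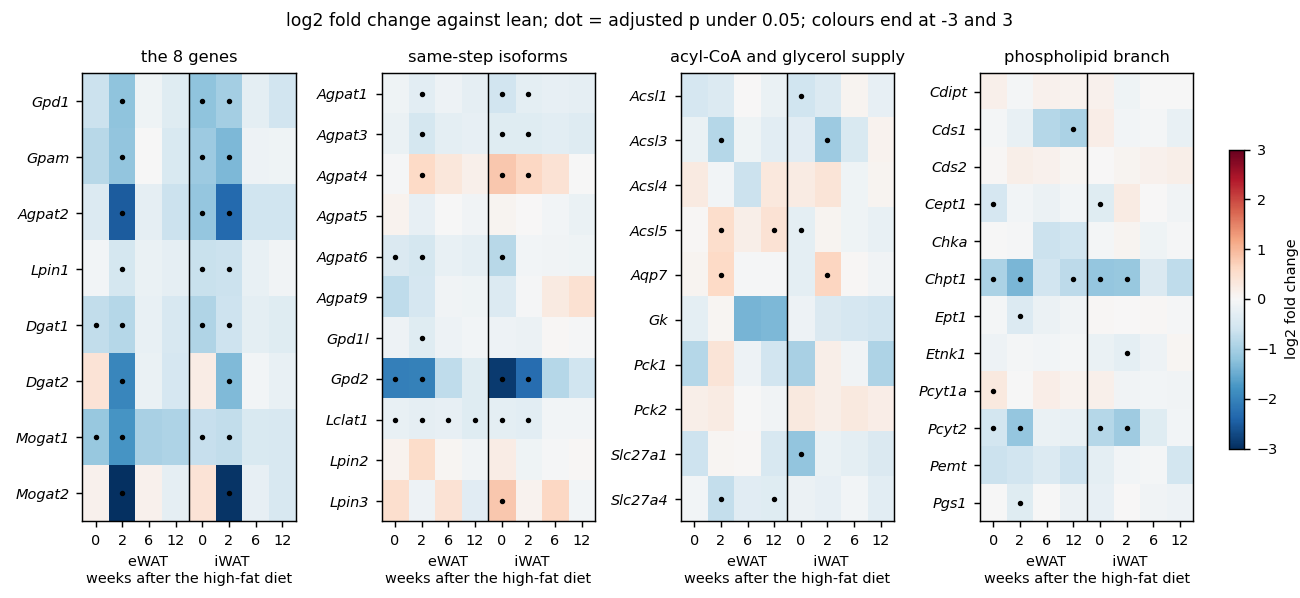
log2 fold change against lean (colour, ending at -3 and 3) for the 8 genes and the 3 lists of other pathway genes (rows) at 0, 2, 6 and 12 weeks after the high-fat diet in eWAT and iWAT (columns), with a dot where the adjusted p was under 0.05. All 8 genes are dotted and blue at 2 weeks in both depots, and in the isoform list Gpd2 has the deepest blue.

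Markers of fat cells, brown-like fat cells and macrophages moved in the same comparisons. Of all genes, 9.31% were called lower in obese eWAT and 17.1% at 2 weeks in eWAT. In iWAT these shares were 15.5% and 9.37%. Called higher in obesity and at 2 weeks were 2013 and 2661 of 14323 genes in eWAT. In iWAT they were 2037 and 1312 of 13899. Of 11 adipocyte markers, 4 fell in obese eWAT (median -0.42), and at 2 weeks in eWAT 4 fell and 1 rose (-0.52). In iWAT 6 fell and 1 rose in obesity (-0.56), and at 2 weeks 2 rose and none fell (0.022). Their summed level ran from 16261 to 37930.5 CPM in obese and 25298 to 44202 in lean eWAT, and from 24391 to 28976 and 29847 to 37927 in iWAT. At 2 weeks it ran from 19472 to 40458 in regression and 26381 to 41634 in lean eWAT, and from 17520.5 to 35183 and 15327 to 32066 in iWAT. With the mean log2 level of these markers as a term in the fit, an alternative added after seeing the data, 0 of the 8 genes were called in obese eWAT and 2 in obese iWAT (Dgat1 and Gpd1), beside 3.32% and 9.97% of all genes called lower. At 2 weeks 7 of 8 were called lower in eWAT (all but Lpin1) and 8 of 8 in iWAT, beside 11.1% and 12.7%. At 6 weeks Mogat1 was called lower in eWAT and Mogat1 and Dgat1 in iWAT, beside 2.37% and 5.24%, and at 12 weeks none of the 8 was, beside 3.62% and 0.0576%. In obese mice Dgat1 and Mogat1 were then -0.30 and -0.56 in eWAT, and Dgat1 and Gpd1 -0.40 and -0.71 in iWAT, each nearer to 0 by more than 1.5 times. In eWAT at 2 weeks 4 of the 8 differences shrank by more than 1.5 times with this term, Dgat1 from -0.85 to -0.44, Mogat1 from -1.76 to -1.11, Gpam from -1.17 to -0.72 and Lpin1 from -0.54 to -0.15. The other 4 there were Gpd1 at -0.96, Agpat2 at -2.16, Dgat2 at -1.68 and Mogat2 at -3.16. In iWAT the 8 stood between -3.13 (Mogat2) and -0.69 (Lpin1), each further from 0 than without the term.

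Of 5 markers of brown-like adipocytes, 5 fell in obese iWAT (median -3.52), with a summed level of 19.0 to 56.9 CPM against 171 to 426.9 in lean mice, and at 2 weeks 3 of 5 fell (-2.42), with 8.49 to 65.0 against 67.8 to 435.1 CPM. In eWAT, where 4 were tested and levels were low, 2 fell in obesity (-1.64, 4.21 to 18.3 against 15.8 to 32.7 CPM), and at 2 weeks 2 fell and 1 rose (-0.57, 8.33 to 15.2 against 9.90 to 24.2 CPM). All 10 macrophage markers rose in obese eWAT, with a summed level of 943 to 3940.1 CPM against 574 to 766, and at 2 weeks in eWAT, with 1232 to 3792 against 595 to 854. In iWAT all 10 rose in obesity (1187 to 4208 against 554 to 1379.8 CPM) and 2 of 10 at 2 weeks (2105 to 5015 against 1312 to 2784). The part of macrophage or brown-like adipocyte RNA in the differences of the 8 genes was not tested.

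For each of the 8 genes, the 3 genes with the most similar profile were found among 10851 genes tested in both depots with a mean of at least 5 CPM in each. Likeness was the root mean square difference of the log2 fold changes over the 8 comparisons with lean mice, 4 in each depot, and is a description. Nearest to Dgat1 was Pex16 (0.0761), nearest to Gpd1 Pdhx (0.114) followed by Cs (0.127) and Coasy, and nearest to Lpin1 Slc38a10 (0.108) followed by Esrra. Bag1 and Gys1 came next for Dgat1, and Arhgap26 next for Lpin1. Gpam was most like Pdp2 (0.201), Tm7sf2 and Pcyt2, and Agpat2 like 2010003K11Rik (0.214), Insig1 and Gys2. Mogat1 was most like Gsta3 (0.225), Ppp1r1a and Snhg11, and Mogat2 like Ncan (0.359), Ptger3 and Pnpla3. The median over all candidates ran from 0.460 (Lpin1) to 1.59 (Mogat2). Among the 8 genes themselves, Gpam and Gpd1 were the closest pair (0.226) and Mogat2 and Lpin1 the farthest apart (1.32).

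The authors' deposited table of their own DESeq2 comparisons gave the same direction as the fit here for 8 of 8 genes in each of the 8 comparisons. In obese eWAT the authors' deposited table lists 4 of the 8 genes under an adjusted p of 0.05, where Gpam (0.0380) and Gpd1 (0.0382) join Dgat1 and Mogat1. All 8 pass in the authors' deposited table at 2 weeks in each depot, 6 pass in obese iWAT, Mogat1 alone at 6 and 12 weeks in eWAT, and 0 at these times in iWAT.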

How the data were processed

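Poly(A) RNA of snap-frozen fat was sequenced as paired ends, per the labels' protocols. The submitters' processing notes name STAR 2.4.1c, mm10, R 4.2.2 and DESeq2 1.38.3. Counter, annotation and strand setting: not given in the sources used here. As files, the authors deposited raw counts per gene, 20411 genes in each depot's table, and tables of their own comparisons with base mean signal, log2 fold changes, a test score and p-values.

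From the counts, edgeR 4.0.16 (R 4.3.3; TMM scaling, filterByExpr with a minimum count of 10, quasi-likelihood test) was fitted per depot over all 47 libraries, with the 8 groups as coefficients, which left 14323 genes in eWAT and 13899 in iWAT. The standard error is the log2 fold change divided by the root of F. Depots were compared in 1 fit of 94 libraries with the mouse as a block (14749 genes). Adjusted p-values are Benjamini-Hochberg over all genes of a fit. Levels are CPM with TMM library sizes (prior count 2 on the log2 scale). Alternatives used DESeq2 1.42.0 and limma 3.58.1, and fits with mice left out of the depot comparison kept the dispersion trend of the full fit. The statistical code was tested on simulated data.

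The 8 genes and the lists were chosen with earlier results of these data known. All 8 genes were named in every comparison, and of each other list up to 4 called genes with the largest log2 fold change. Replicate numbers were not taken to pair lean with obese or regression mice. In each comparison between 1 and 3 of 5 or 6 same-numbered pairs correlated above 0.1, with values from -0.596 to 0.629. Such a count cannot exclude an effect shared by same-numbered mice, because single pairs ranged widely in both directions. Mouse numbers in the labels pair the depots. Replicates of every group differed by more than sampling noise. The p-values set each difference against the spread between the mice of this 1 study. The genes most like Dgat2 in profile are not reported here.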

Additional observations from a re-analysis of the deposited data

Results flagged for a closer look

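On the log2 CPM scale, 11 of 128 groups of 5 or 6 libraries held 1 library far from its neighbours, where chance gives about 5%. The number given for each is its gap to the nearest library as a share of the group's range.

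In obese iWAT, replicate 5 stood high for Gpam (0.866, 132 CPM against a next value of 76.3) and for Dgat1 (0.795, 164 against 119 CPM). Mogat2 gave 4 of the remaining flags: replicate 6 was low in eWAT of regression mice at 6 weeks (0.691, 1.58 against 15.5 CPM) and of lean mice at 12 weeks (0.750, 3.93 against 16.7), replicate 5 was low in lean eWAT at 6 weeks (0.678, 10.0 against 17.9), and replicate 3 was high in lean iWAT at the obesity time (0.673, 11.7 against 6.35). Mogat1 was high in replicate 6 of eWAT regression mice at 12 weeks (0.637, 23.8 against 11.5 CPM) and low in replicate 4 of lean eWAT at 2 weeks (0.707, 16.4 against 26.7). Dgat2 was high in replicate 3 of lean eWAT at the obesity time (0.630, 4045 against 2998 CPM), Agpat2 in replicate 1 of lean eWAT at 6 weeks (0.629, 1216 against 769), and Lpin1 was low in replicate 2 of lean iWAT at 6 weeks (0.736, 466.8 against 603).

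The difference from lean mice changed between times, by edgeR's test of the change, in both directions for the same 3 genes of eWAT. From obesity to 2 weeks it changed by -2.38 for Dgat2, -3.34 for Mogat2 and -2.08 for Agpat2 in eWAT, and by -1.54 for Dgat2 and -3.35 for Mogat2 in iWAT (log2). From 2 to 6 weeks it changed by 1.76 for Dgat2, 3.35 for Mogat2 and 2.24 for Agpat2 in eWAT. Between depots, the response of Mogat1 at 2 weeks differed by 1.02 (iWAT minus eWAT).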

How the results depend on the processing

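The differences of the 8 genes were refitted under other settings, but those of genes in the other lists were not. Fits of 2 groups, of 1 series, with the random block, or with adipocyte or other-tissue terms covered only comparisons with age-matched lean mice. Fits with single libraries left out also covered the depot difference in obesity and at 2 weeks. None of these fits was run for the changes between times, so whether those calls hold under them was not tested. The replicate numbers were not taken to pair the mice. With the replicate block, 3 of the 8 genes were called in obese eWAT and 8 at 2 weeks, against 2 and 8 without it. In iWAT 6 and 8 were called, as without it. DESeq2 called 4 in obese eWAT, 1 at 6 weeks and 1 at 12 weeks in eWAT. With only the 2 groups compared in the fit, 1 was called in obese eWAT, 1 at 12 weeks in eWAT and 5 at 2 weeks in iWAT. The run of neighbouring mouse numbers as a random block gave 1 at 12 weeks in eWAT (Mogat1, adjusted p = 0.0265) and ended 4 single calls, those of Lpin1 and Mogat1 in iWAT in obesity and at 2 weeks. With replicates 1 to 3 apart, 1 was called in obese eWAT, 5 at 2 weeks and 1 at 12 weeks in eWAT, and 2 at 2 weeks in iWAT, and with replicates 4 to 6 apart 0 in obese eWAT and 2 in obese iWAT. The adipocyte term, added after seeing the data, gave 0 in obese eWAT, 1 at 6 weeks in eWAT, 2 in obese iWAT and 2 at 6 weeks in iWAT. The cause of these changes was not tested, but the series fitted apart and the fits of 2 groups hold fewer samples.

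Leaving out 1 library at a time gave 0 to 4 genes in obese eWAT (0 without obese replicate 4, 1 without obese replicate 2, 4 without obese replicate 5), 0 to 1 at 6 weeks and 0 to 1 at 12 weeks in eWAT, 5 to 8 at 2 weeks in iWAT (5 without lean replicate 3), and 0 to 2 for the depot difference at 2 weeks.

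Signs that turned all belong to differences not called in the reported fit. Without the count filter, Gpam was 0.00899 at 6 weeks in eWAT, and the depot difference at 2 weeks 0.028 for Gpam and 0.00654 for Lpin1, while limma on within-mouse differences gave 0.00419 for Gpam. With the replicate block, Gpam was 0.00895 and Mogat2 -0.069 at 6 weeks in eWAT, and the change of Mogat2 from obesity to 6 weeks -0.24. The series as a term gave -0.085 for that change and -0.00539 for Dgat1 in lean iWAT over time. Replicates 1 to 3 apart gave -0.69 for Mogat2 and 0.15 for Lpin1 in obese eWAT, 0.10 for Gpam at 6 weeks in eWAT, -0.087 for Mogat2 in obese iWAT and 0.15 for Dgat2 at 6 weeks in iWAT. Replicates 4 to 6 apart gave -0.095 for Mogat2 in eWAT and 0.099 in iWAT at 6 weeks, and the random block -0.22 for Mogat2 at 6 weeks in eWAT. With the adipocyte term, Lpin1 was 0.29 in obese eWAT and 0.00780 at 12 weeks, and Gpam 0.12 at 6 weeks. With single libraries left out, the ranges that crossed 0 were -0.21 to 0.48 (Mogat2) and -0.19 to 0.073 (Lpin1) in obese eWAT, -0.18 to 0.13 (Gpam) and -0.18 to 0.38 (Mogat2) at 6 weeks in eWAT, -0.076 to 0.68 (Mogat2) in obese iWAT, -0.19 to 0.040 (Dgat2) at 6 weeks and -0.27 to 0.024 (Lpin1) and -0.38 to 0.030 (Gpam) at 12 weeks in iWAT. For the depot difference they were -0.23 to 0.075 (Dgat1) and -0.16 to 0.59 (Mogat2) in obesity and -0.077 to 0.17 (Gpam), -0.13 to 0.13 (Lpin1) and -0.014 to 0.29 (Agpat2) at 2 weeks. Depth limits Mogat2 most, with few counts in the libraries of the 2-week regression groups.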

Other observations

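The ratio of Dgat2 to Dgat1 transcripts, a measure chosen after its genes' values were seen, was computed in each mouse from levels per length of exon (RPKM). In eWAT it was 34.1 ± 12.0 in obese mice (SD, n = 5) and 14.7 ± 4.46 in lean mice (n = 6), and at 2 weeks 8.86 ± 2.41 in regression and 19.9 ± 5.28 in lean mice (n = 6 each). In iWAT it was 25.3 ± 11.8 in obese and 11.4 ± 2.93 in lean mice, and at 2 weeks 8.48 ± 2.20 and 14.8 ± 1.77. At 2 weeks no regression mouse reached the lowest lean mouse in either depot, and in obesity the ranges overlapped in both. At 12 weeks the ratio was 20.4 ± 6.61 against 21.3 ± 4.74 in eWAT and 15.6 ± 5.01 against 14.1 ± 2.25 in iWAT.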
